A study of Mus musculus with 12 samples.

Results

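Septins are GTP-binding proteins that assemble into rods, filaments and rings at the cell cortex, where they act as scaffolds and barriers beside actin and microtubules. They fall into the SEPT2, SEPT3, SEPT6 and SEPT7 subgroups, and a filament is built by alternating subunits of these subgroups, with SEPT7 as a subunit that most filaments need. In T cells septins stiffen the cortex and shape the trailing part of a migrating cell, and in dividing cells septins gather at the cleavage furrow.

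Expression of 8 septin genes was followed in primary CD8+ T cells of wild type mice. The cells were taken from spleen and lymph nodes, activated through CD3 and CD28, transfected with a non-targeting siRNA (siNTC) or an siRNA against Creb1 (siCreb1), and kept for 24 h with DMSO or with TVA, trans-vaccenic acid, at 20 μM. The 4 groups (siNTC with DMSO, siNTC with TVA, siCreb1 with DMSO and siCreb1 with TVA) held 3 libraries each, and "without TVA" means DMSO below. All groups therefore had activation and siRNA transfection in common, the knockdown was transient and partial, and nothing in the labels says whether the 3 libraries of a group came from separate mice, so p-values measure the spread between these libraries, which may be technical.

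The deposited files write septin names as dates, so that 1-Sep stands for septin 1, and each was matched through its Ensembl identifier and its description. The files hold 14 rows with such a name, for 13 septin genes among 54532 genes. The 8 members described here, 1-Sep, 2-Sep, 6-Sep, 7-Sep, 8-Sep, 9-Sep, 10-Sep and 11-Sep, were chosen by name with the FPKM values of these libraries in view, and their levels are given as a description without a test. No level separates them from the rest. The nearest septin outside the set, 4-Sep, had a mean of 0.783 FPKM over the 12 libraries, above 10-Sep at 0.753 FPKM and 2-Sep at 0.581 FPKM, and the other 4 genes, 3-Sep, 5-Sep, 12-Sep and 14-Sep, were listed at or below 0.132 FPKM in every library, a value that for 5-Sep rests on few bases, since 83.7% of its exonic bases are shared with another gene model on the same strand and reads in shared bases appear not to have been counted. Of the 8 members, 6 reached a mean of 1 FPKM and entered the tests, and 2-Sep and 10-Sep did not.

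The libraries held between 16660234 and 24602484 reads, with a median of 20759165. Creb1 itself lay between 10.3 and 12.4 FPKM in the 6 siNTC libraries and between 1.17 and 1.81 FPKM in the 6 siCreb1 libraries. Every library thus matched the siRNA in its label, and the TVA part of the labels was not checked this way. Cd8a, which defines the isolated cells, lay between 416 and 450.4 FPKM, and Cd4 at or below 1.75 FPKM. Platelet markers (Pf4, Itga2b and Gp9, all above 0) summed to 82.4 to 93.9 FPKM in the siNTC libraries and to 54.9 to 67.5 FPKM in the siCreb1 libraries. The 8 CD8 T cell markers summed to 2334 to 2367 FPKM with siNTC and to 2216 to 2249 FPKM with siCreb1. In bulk RNA, fewer cells of a type and less RNA per cell cannot be told apart.

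FPKM scales reads by library size and by gene length, here the bases of all annotated exons (2763 for 1-Sep and 11631 for 7-Sep). Which of these bases the cells use was not tested, so the order and shares below are of FPKM as counted. 1-Sep (septin 1, SEPT2 subgroup, ENSMUSG00000000486, GRCm38 chromosome 7, 127214447 to 127233130) had the highest FPKM of the septins as counted here, at 179.9 to 193 FPKM. Septin 2 has no place in this order, because most of its coding sequence appears not to have been counted, as described with its values. 9-Sep (SEPT3 subgroup, ENSMUSG00000059248, chromosome 11, 117199661 to 117362325), a subunit known for binding microtubules and actin, followed at 56.6 to 59.6 FPKM. 6-Sep (SEPT6 subgroup, ENSMUSG00000050379, chromosome X, 36911326 to 36991794), a core subunit of the canonical filament, lay at 38.5 to 41.3 FPKM.

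7-Sep (the sole member of its subgroup, ENSMUSG00000001833, chromosome 9, 25252439 to 25308571) lay at 17.4 to 20.5 FPKM. 11-Sep (SEPT6 subgroup, ENSMUSG00000058013, chromosome 5, 93093437 to 93176447) lay at 8.55 to 11.6 FPKM and 8-Sep (SEPT6 subgroup, ENSMUSG00000018398, chromosome 11, 53519257 to 53549565) at 1.34 to 2.66 FPKM. The ranges of neighbours in this order did not overlap, from 1-Sep down to 8-Sep. Below 8-Sep, 4-Sep, 10-Sep (SEPT6 subgroup, ENSMUSG00000019917, chromosome 10, 59141627 to 59221847) and 2-Sep had overlapping ranges. 4-Sep was above 10-Sep in 7 of 12 libraries, an order that is not resolved, and 10-Sep was above 2-Sep as counted in 12 of 12.

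**Figure D1:**
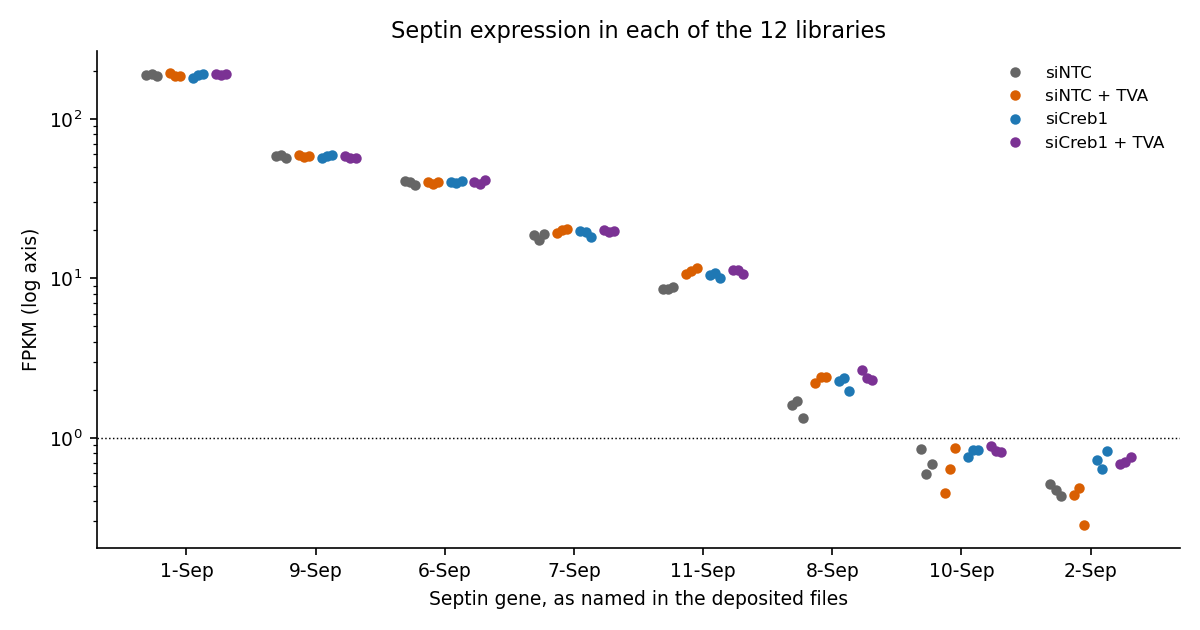
FPKM on a log axis (y) of the 8 septin genes (x), with 1 point for each of the 12 libraries coloured by group and a dotted line at 1 FPKM, the mean needed for the tests. The 6 genes from 1-Sep to 8-Sep form separate steps, from 179.9 to 193 FPKM down to 1.34 to 2.66 FPKM, while 10-Sep and 2-Sep overlap below the line.

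By subgroup, the SEPT2 genes made up 59.2% of all septin FPKM over the 12 libraries, the SEPT3 genes 18.2%, the SEPT6 genes 16.6% and 7-Sep 6.03%. These shares are of the FPKM as counted, which leaves septin 2 and septin 5, both of the SEPT2 subgroup, largely unmeasured. The mean FPKM of 1-Sep was 3.24 times that of 9-Sep. The septin total, with the same limit, was 316 ± 4.23 FPKM (SD, n = 3) in siNTC cells, 322 ± 4.72 with TVA, 318 ± 6.04 in siCreb1 cells and 323 ± 2.31 in siCreb1 cells with TVA. Single libraries lay between 311 and 327 FPKM. Within the SEPT6 subgroup the share of the total was 16.0% ± 0.162 (SD, n = 3) in siNTC cells and 16.8% to 16.9% on average in each of the other 3 groups.

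The comparisons ask what TVA changed in control cells, what it changed after Creb1 knockdown, what the knockdown changed with and without TVA, and whether the response to TVA differed between the siRNAs (the interaction). A gene was called when limma's adjusted p over all 11550 tested genes was under 0.05, and differences are on the log2(FPKM + 1) scale, which understates the change of 8-Sep and other low genes.

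In control cells, TVA raised 11-Sep and 8-Sep. Both belong to the SEPT6 subgroup and can stand in for 6-Sep in a filament. 11-Sep read 8.55, 8.64 and 8.85 FPKM in the 3 siNTC libraries and 10.6, 11.1 and 11.6 FPKM in the 3 libraries with TVA. Every library with TVA was above every library without it. The mean rose from 8.68 ± 0.156 to 11.1 ± 0.476 FPKM (SD, n = 3), which is 1.28 times, and the log2 difference was 0.33 (SE 0.0397, limma adjusted p = 0.000588). 8-Sep read 1.60, 1.70 and 1.34 FPKM without TVA and 2.22, 2.41 and 2.41 FPKM with it. Again the groups did not overlap, and the mean was 1.52 times as high with TVA (1.55 ± 0.187 against 2.35 ± 0.109 FPKM, SD, n = 3). Its log2 difference was 0.40 (SE 0.0783, limma adjusted p = 0.0117). The call for 8-Sep was lost when only the 6 libraries compared were fitted (adjusted p = 0.0702). These 2 of 6 tested septins stand beside 7.38% of all tested genes called in this comparison. Because the members were chosen with the values in view, the count is a description.

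The other 4 tested septins did not pass the test in control cells. 7-Sep read 18.8, 17.4 and 18.9 FPKM without TVA and 19.3, 20.1 and 20.5 FPKM with it. Its groups did not overlap, yet the log2 difference of 0.11 (95% confidence interval 0.02 to 0.20) had a limma adjusted p of 0.136. The limma unadjusted p of 7-Sep was 0.0186, at rank 1578 of the 11550 tested genes. On the recovered read counts, by limma-voom, the adjusted p was 0.0273. The septins with the highest FPKM, 1-Sep, 9-Sep and 6-Sep, lay within 0.01 of 0 on the log2 scale in this comparison.

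After Creb1 knockdown, no septin was called for TVA, in a comparison where 0.537% of all tested genes were. At an unadjusted p under 0.05 the count was also 0 of 6. Among all 11550 tested genes, that at rank 790 had a limma unadjusted p of 0.0323 and that at rank 1199 had 0.0565. At least 790 and fewer than 1199 tested genes thus passed the unadjusted threshold. 11-Sep read 10.5, 10.8 and 10.1 FPKM in siCreb1 libraries without TVA and 11.3, 11.2 and 10.6 FPKM with it. The ranges overlapped, and the log2 difference was 0.07 (95% confidence interval -0.02 to 0.16, limma adjusted p = 0.648). 8-Sep read 2.29, 2.39 and 1.98 FPKM without TVA and 2.66, 2.38 and 2.31 FPKM with it, a log2 difference of 0.10 (95% confidence interval -0.07 to 0.28, limma adjusted p = 0.753). The intervals of both genes hold 0. That of 8-Sep overlapped its interval in control cells (0.22 to 0.57), and that of 11-Sep did not (0.24 to 0.41). Whether the response differs between the siRNAs is asked by the interaction, given below.

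Knockdown of Creb1 by itself, without TVA, also raised 11-Sep and 8-Sep. The siCreb1 mean of 11-Sep was 10.5 ± 0.350 FPKM (SD, n = 3), 1.21 times the siNTC mean, with a log2 difference of 0.25 (SE 0.0397, limma adjusted p = 0.00305). For 8-Sep it was 2.22 ± 0.215 FPKM (SD, n = 3), 1.43 times the siNTC mean, with a log2 difference of 0.34 (SE 0.0783, limma adjusted p = 0.0182). In neither gene did an siCreb1 library overlap an siNTC library. The call for 8-Sep was lost, at a limma adjusted p between 0.0552 and 0.0668, when siNTC replicate 3, siCreb1 replicate 1 or siCreb1 replicate 2 was left out, and 11-Sep was called in all 12 such fits. 2 of 6 septins were called here, beside 13.7% of all tested genes. This comparison and that of TVA in control cells share the 3 siNTC libraries, so the 2 differences of each gene are not independent. The platelet and CD8 T cell marker sums given above were lower in siCreb1 than in siNTC libraries, and their part in the septin differences was not tested.

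With TVA in both arms, no septin was called between siCreb1 and siNTC (0 of 6, also at an unadjusted p under 0.05), beside 10.1% of all tested genes. The 10.1% is for the adjusted p. By unadjusted p, the highest placed of the 6 septins, 9-Sep, ranked 6807 of the 11550 tested genes. 11-Sep stood at 11.1 FPKM on average in both groups, and the log2 difference was -0.01 (95% confidence interval -0.10 to 0.08), a value whose sign changed with the scaling. 8-Sep differed by 0.04 (95% confidence interval -0.13 to 0.22).

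In the interaction, 11-Sep was the 1 called septin of 6, beside 2.24% of all tested genes. Its response to TVA was smaller by 0.26 on the log2 scale in siCreb1 cells than in siNTC cells (interaction -0.26, 95% confidence interval -0.38 to -0.13, limma adjusted p = 0.0441). The value lies close to the threshold: leaving out 1 library ended the call in 11 of 12 cases, with log2 values between -0.28 and -0.23 and adjusted p between 0.0384 and 0.110, siNTC plus TVA replicate 1 being the exception. Rescaling to TPM (adjusted p = 0.157) and a replicate block (adjusted p = 0.0919) ended it too. For 8-Sep the interaction was -0.29 (95% confidence interval -0.54 to -0.05) with an unadjusted p of 0.0230 and an adjusted p of 0.240, both by limma. Of the 6 septins, 2 had an unadjusted p under 0.05 in the interaction. Among all 11550 tested genes, 11-Sep ranked 241 and 8-Sep 1106 by this p. The gene at rank 1460 had a limma unadjusted p of 0.0393 and that at rank 1778 had 0.0568. At least 1460 and fewer than 1778 tested genes were thus under 0.05 as well.

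**Figure D2:**
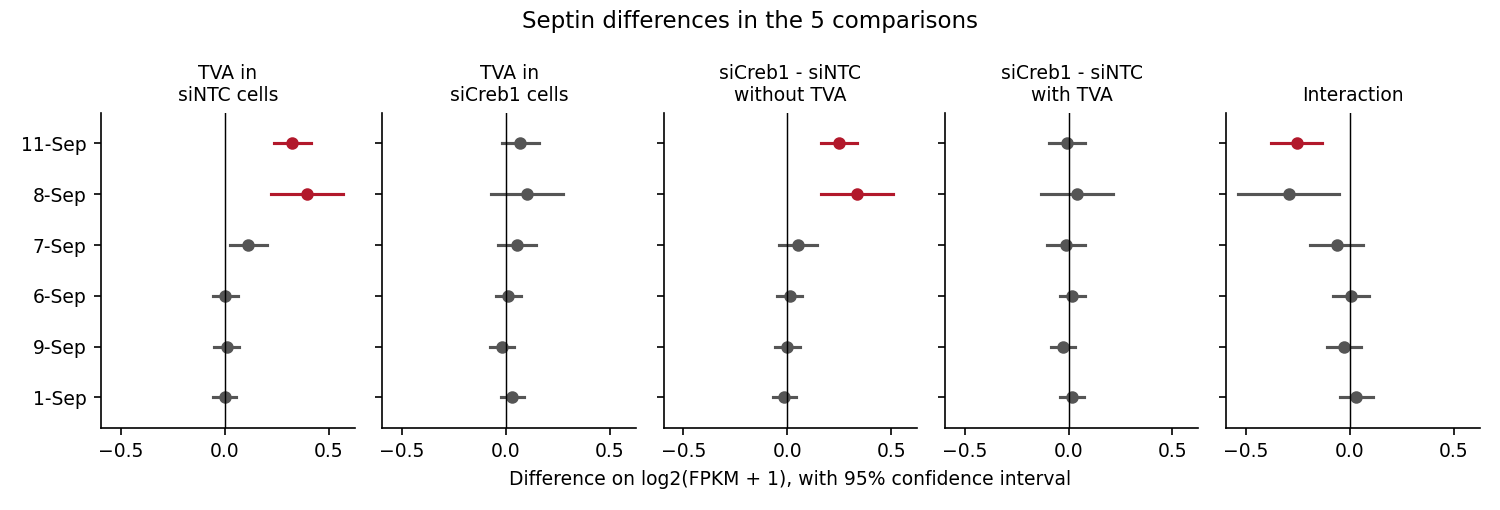
Difference on log2(FPKM + 1) (x) for the 6 tested septins (y) in each of the 5 comparisons, as points with 95% confidence intervals from the fit of all 12 libraries, in red where the adjusted p was under 0.05. 11-Sep (0.33 and 0.25) and 8-Sep (0.40 and 0.34) stand to the right in the comparisons against siNTC cells with DMSO, and 1-Sep, 6-Sep and 9-Sep stay near 0 throughout.

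1-Sep, 6-Sep and 9-Sep differed little between groups. Their 12 pairwise log2 differences lay between -0.03 and 0.03, and the confidence intervals ran from -0.09 to 0.09, which bounds a change between -5.79% and 6.17% on this scale. Rescaled to TPM, the largest difference was 0.07 for 1-Sep, 0.07 for 6-Sep and 0.05 for 9-Sep. 6-Sep, the SEPT6 gene with the highest FPKM, read 40.5, 40.1 and 38.5 FPKM in siNTC libraries and 40.2, 39.1 and 40.1 FPKM with TVA. In siCreb1 libraries it read 40.02, 39.4 and 40.6 FPKM without TVA and 40.4, 39.3 and 41.3 FPKM with it. The 4 groups overlapped fully. Over the 12 libraries the coefficient of variation was 1.91% for 6-Sep, 1.92% for 9-Sep and 1.87% for 1-Sep, against 4.55% for 7-Sep, 10.4% for 11-Sep and 18.6% for 8-Sep. 8-Sep rested on 169 to 388 reads a library and 11-Sep on 1423 to 2664.

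The unequal behaviour within the SEPT6 subgroup can be read as a ratio inside each library, which no scaling between libraries can change. 11-Sep stood at 21.1% to 23.0% of 6-Sep in the siNTC libraries, at 26.5% to 28.9% with TVA, at 25.0% to 27.4% in siCreb1 libraries and at 25.8% to 28.6% with both. Every siNTC library without TVA was below the other 9 libraries, which overlapped among themselves. 11-Sep relative to 7-Sep went from 47.3% ± 2.06 (SD, n = 3) in siNTC cells to 55.7% ± 0.869 with TVA, 55.1% ± 1.38 with siCreb1 and 55.9% ± 1.80 with both. The ratio of 1-Sep to 9-Sep stayed between 318% and 337% in all 12 libraries.

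**Figure D3:**
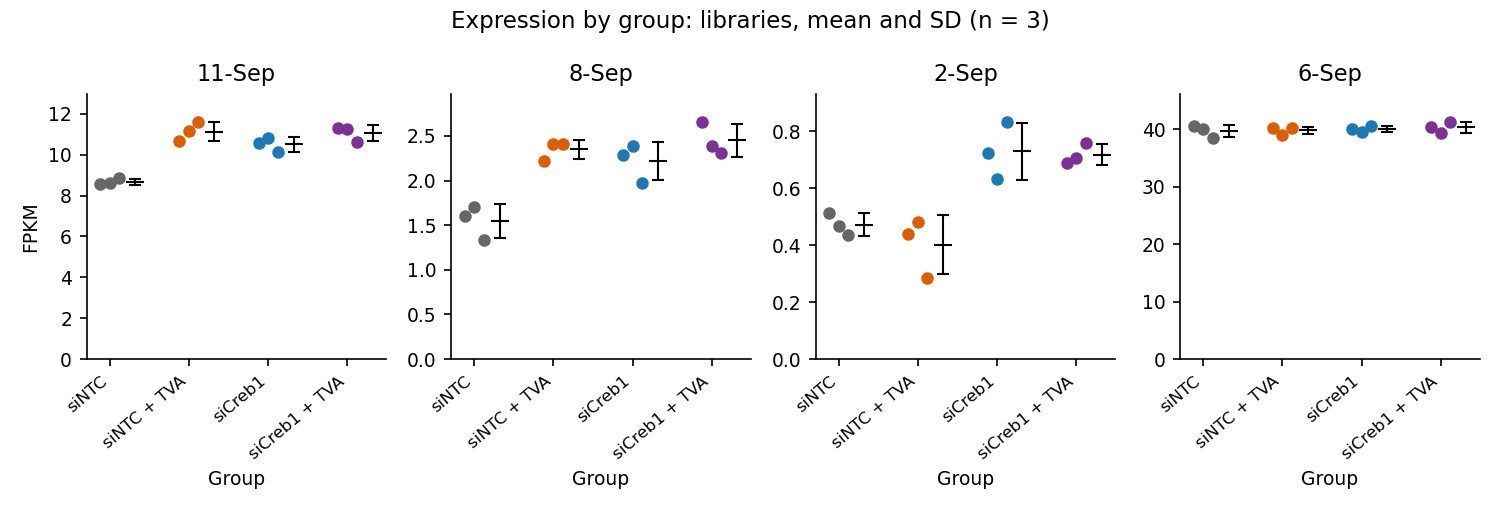
FPKM (y, from 0) of 11-Sep, 8-Sep, 2-Sep and 6-Sep in the 4 groups (x), with a coloured point per library and the mean and SD (n = 3) in black. 11-Sep and 8-Sep are lowest in the siNTC libraries without TVA, 2-Sep is higher in the 6 siCreb1 libraries (0.634 to 0.833 FPKM) than in the 6 siNTC libraries (0.283 to 0.515 FPKM), and 6-Sep is level.

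11-Sep and 8-Sep varied together over the 12 libraries, with a Pearson r of 0.94 and a Spearman rho of 0.93 on log2(FPKM + 1), while 11-Sep and 6-Sep had an r of 0.04. These values describe libraries that fall into 4 groups and carry no test. Among the other tested genes the pattern most like that of 11-Sep was shown by Kntc1, a kinetochore and checkpoint protein (r = 0.97, rho = 0.86), Espl1, the separase that cleaves cohesin (r = 0.96, rho = 0.79) and E2f7, a repressor of the E2F family (r = 0.96, rho = 0.89). For 8-Sep they were Incenp, the scaffold of the Aurora B complex (r = 0.95, rho = 0.79), Zcwpw1, a histone reader (r = 0.95, rho = 0.92) and 11-Sep itself. For 7-Sep they were Phip (r = 0.96, rho = 0.97), Kif5b, a kinesin heavy chain (r = 0.94, rho = 0.88) and Diaph3, a formin (r = 0.90, rho = 0.90).

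2-Sep encodes septin 2, the founding member of its subgroup and a core subunit of the canonical filament, and here its value needs care. The annotation carries 2 overlapping gene models of that name on the same strand of chromosome 1. The first (ENSMUSG00000026276, 93478964 to 93510260) has 7979 exonic bases, of which the second (ENSMUSG00000116048, 93478993 to 93509733) covers 3335, its whole length. The second model was listed at 0 in all 12 libraries. Among genes whose exonic bases are all shared with another gene on the same strand, 29 of 752 (3.86%) had any reads, against 21410 of 42670 (50.2%) of genes with no shared base. Reads in shared bases thus appear to have been left out of the counts, and septin 2 would then be read only from the 4644 bases of the first model that are unshared. These hold 72 of its 1173 coding bases, and 93.9% of the coding sequence lies in the shared part. The largest unshared stretch runs from 93479181 to 93482368, of which 2957 of 3188 bases belong neither to coding sequence nor to an annotated UTR. The level of 0.581 FPKM is therefore not read here as that of septin 2 messenger RNA as a whole.

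With that limit, 2-Sep read 0.515, 0.468 and 0.435 FPKM in siNTC libraries and 0.441, 0.482 and 0.283 FPKM with TVA. It read 0.725, 0.634 and 0.833 FPKM in siCreb1 libraries and 0.689, 0.706 and 0.760 FPKM with TVA. All 6 siCreb1 libraries were above all 6 siNTC libraries. The mean was 0.725 ± 0.0677 against 0.437 ± 0.0808 FPKM (SD, n = 6), 1.66 times, with an exact two-sided permutation p of 0.00216 that is the smallest 6 against 6 can give, in a comparison chosen after the values were seen. In the fit of all 29700 genes above 0 it was not called, with limma adjusted p = 0.179 without TVA and 0.0981 with TVA. Limma-voom on all recovered reads, added after seeing the data, gave 0.0667 and 0.0173. It rested on 46 to 82 reads a library with siNTC and 113 to 147 with siCreb1. The siNTC libraries held 16660234 to 20758033 reads over all genes and the siCreb1 libraries 20760297 to 24602484. Depth thus differs with the siRNA, and although FPKM scales for it, its part in the 2-Sep difference was not tested. The platelet marker sum given above differs between the same libraries in the opposite direction, and its part in this difference was not tested.

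10-Sep, a SEPT6 subgroup gene with few reads (26 to 66 a library), lay at 0.452 to 0.869 FPKM in the 6 siNTC libraries and at 0.754 to 0.884 FPKM in the 6 siCreb1 libraries. The ranges overlapped, and in the fit of all genes above 0 the limma adjusted p was at least 0.580 in each of the 5 comparisons. 4-Sep, with a like FPKM, lay at 0.675 to 0.907 FPKM and at 0.480 to 1.02 FPKM in the same sets.

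Because 11-Sep and 8-Sep moved together on knockdown of a transcription factor, the letters of their promoters are shown. RefSeq windows of 250 bases before to 50 bases after a transcription start (GRCm38.p6) were at hand for 6 of the 8 septins, 12 windows in all. They were searched on both strands for the cyclic AMP response element TGACGTCA, its core TGACG, the E2F letters TTTCGCGC and TTTGGCGC, and the cell cycle homology letters TTTGAA and TTCGAA. The core is part of the full element, so the 2 searches overlap. Of 32851 windows of the same length, 1.79% hold the full element, 20.8% the core, 0.813% the E2F letters and 19.2% the cell cycle homology letters. Capitals mark matches.

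11-Sep promoter, + strand, chr5:93093166-93093465: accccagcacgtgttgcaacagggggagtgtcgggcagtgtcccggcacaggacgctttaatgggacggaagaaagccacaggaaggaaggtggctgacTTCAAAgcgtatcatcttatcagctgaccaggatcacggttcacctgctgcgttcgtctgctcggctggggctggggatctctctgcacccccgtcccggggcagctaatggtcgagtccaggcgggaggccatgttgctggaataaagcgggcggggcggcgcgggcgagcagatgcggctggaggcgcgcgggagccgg
8-Sep promoter, + strand, chr11:53519486-53519785: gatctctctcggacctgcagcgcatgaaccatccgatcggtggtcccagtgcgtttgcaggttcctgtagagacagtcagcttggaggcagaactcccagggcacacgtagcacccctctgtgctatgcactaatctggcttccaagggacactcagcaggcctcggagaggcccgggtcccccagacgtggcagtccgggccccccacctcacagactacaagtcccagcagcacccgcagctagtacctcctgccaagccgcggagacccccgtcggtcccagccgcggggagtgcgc
8-Sep promoter, + strand, chr11:53519938-53520237: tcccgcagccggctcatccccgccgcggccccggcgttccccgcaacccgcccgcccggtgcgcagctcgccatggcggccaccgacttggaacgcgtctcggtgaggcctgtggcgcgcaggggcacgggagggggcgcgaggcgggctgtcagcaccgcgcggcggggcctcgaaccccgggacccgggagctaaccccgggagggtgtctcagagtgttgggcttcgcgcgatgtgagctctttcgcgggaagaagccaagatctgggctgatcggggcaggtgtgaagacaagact
2-Sep promoter, + strand, chr1:93478811-93479110: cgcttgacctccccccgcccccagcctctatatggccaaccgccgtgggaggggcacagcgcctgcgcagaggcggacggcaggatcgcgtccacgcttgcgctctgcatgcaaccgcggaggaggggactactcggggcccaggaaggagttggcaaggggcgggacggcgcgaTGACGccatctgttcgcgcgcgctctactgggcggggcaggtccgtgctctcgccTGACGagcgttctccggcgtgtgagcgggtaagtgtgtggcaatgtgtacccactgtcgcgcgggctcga

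None of the 12 windows holds the full element or either E2F string given above, and other forms of the E2F letters were not searched. The 11-Sep window holds 1 match, to the cell cycle homology letters on the opposite strand, 151 bases before the start, and neither 8-Sep window holds any. The cell cycle homology letters also lie in both 7-Sep windows, 35 bases before the start in one and 5 in the other. The core was found in windows of 2-Sep (75 and 20 bases before the start in the window shown), 7-Sep and 10-Sep. A match describes letters only, and these windows were not assayed for binding.

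Partners and regulators of septins were read from a list of 12 genes, of which 6 reached the level for testing. Anln, the anillin that ties septins to the contractile ring, was 2.28 ± 0.0698 FPKM in siNTC cells and 3.34 ± 0.0649 FPKM with TVA (SD, n = 3), and it rose by 0.41 on the log2 scale (limma adjusted p = 0.000526). Knockdown without TVA raised 1 and lowered 1 of the 6 tested genes, beside 13.7% of all tested genes called, and the lower call was lost in 4 of the 12 fits without 1 library and under TPM. Anln was the gene called higher in siCreb1 cells without TVA (0.21, limma adjusted p = 0.0182, lost without siNTC replicate 2 or siCreb1 replicate 1), and it was called in the interaction too (-0.37, limma adjusted p = 0.0212), a call that 7 of those 12 fits lost. Cdc42, the GTPase that acts on septins, its effector Cdc42ep3, Rhoa and Myh9 were called in none of the 5 comparisons on log2(FPKM + 1). By limma-voom on recovered reads, 2 genes of the list were called higher in siCreb1 cells without TVA and 1 with TVA in both arms. That fit called 1182 and 915 of all 11550 tested genes higher in these comparisons. The median log2 difference of the list with TVA in control cells was 0.01, beside -0.01 for all tested genes.

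Cytokinesis genes, 22 listed and all tested, rose in 15 cases with TVA in control cells, and none fell, beside 7.38% of all tested genes called, with a median log2 difference of 0.37 against -0.01 for all tested genes. Examples are the Aurora B kinase Aurkb (0.49, limma adjusted p = 7.15e-05), its complex partner Cdca8 (0.51, limma adjusted p = 7.74e-05) and Birc5, survivin (0.50, limma adjusted p = 0.000247). Beside the list median, 11-Sep at 0.33 was lower and 8-Sep at 0.40 was higher, and both were below the 3 examples named. In siCreb1 cells TVA raised 0 of the 22, with a median of 0.03, beside 0.537% of all tested genes called. In the interaction 9 of the 22 were called lower, beside 2.24% of all tested genes. Without TVA, knockdown raised 10 and lowered 1 (median 0.20), beside 13.7%, and with TVA it lowered 4 and raised none (median -0.08), beside 10.1%. In that last comparison Aurkb was lower (-0.23, limma adjusted p = 0.00933), whereas neither 11-Sep nor 8-Sep was called.

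**Figure D4:**
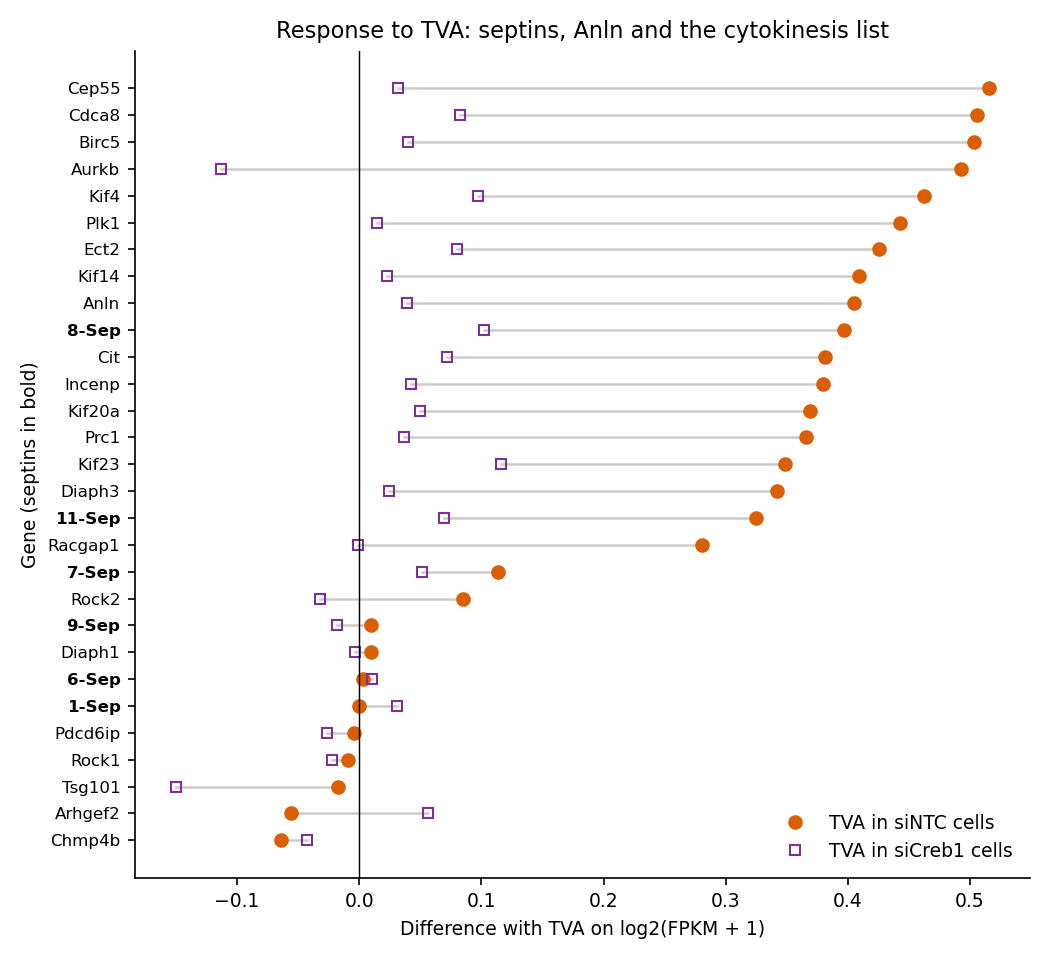
Difference with TVA on log2(FPKM + 1) (x) in siNTC cells (filled circles) and in siCreb1 cells (open squares) for the 6 tested septins (bold), Anln and the 22 cytokinesis genes (y), sorted by the value in siNTC cells. 8-Sep (0.40 and 0.10) and 11-Sep (0.33 and 0.07) lie among the cytokinesis genes that rose, and 1-Sep, 6-Sep and 9-Sep lie near 0 in both.

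Tubulins and cortical actin genes, the other filament systems that septins meet, behaved less evenly. With TVA in control cells 4 of 11 tested tubulin genes rose, led by Tubb5 (0.47, limma adjusted p = 3.41e-06) and Tuba1b (0.55, limma adjusted p = 2.01e-05), and none fell (median 0.05), beside 7.38% of all tested genes called. These 4 became 2 with only the libraries compared, and the call for Tuba1c was lost in 10 of the 12 fits without 1 library. Of 30 cortical actin genes 2 rose and 2 fell (median 0.01), Actg1 being higher (0.17, limma adjusted p = 0.00139) and Evl lower (-0.16, limma adjusted p = 0.00211), and the number lower was 1 in 8 of the 12 fits without 1 library. Knockdown without TVA lowered 7 and raised none of the actin genes (median -0.03), among them Coro1a (-0.16, limma adjusted p = 0.00383), and raised 2 and lowered 1 of the tubulins, beside 13.7% of all tested genes called. The 7 lowered actin genes became 1 with only the libraries compared and 4 without siCreb1 replicate 2, and the lowered tubulin was lost in 5 of the 12 fits without 1 library. With TVA in both arms, knockdown lowered 6 and raised 1 of the actin genes and lowered 4 tubulins, beside 10.1% of all tested genes called. The 6 lowered actin genes became 1 to 3 when any 1 of the 6 libraries with TVA was left out, the raised one was lost in 8 of 12 such fits, and the tubulins became 2 without siNTC plus TVA replicate 1 or any of the siCreb1 plus TVA libraries. After rescaling to TPM, 0 actin genes were called lower in either knockdown comparison, and 1 tubulin in the latter. Over all 11550 tested genes, TPM gave 297 called lower with knockdown without TVA and 120 with TVA. For TVA in siCreb1 cells no actin, tubulin or partner gene was called by limma on log2(FPKM + 1), beside 0.537% of all tested genes. Limma-voom on recovered reads called 3 actin genes higher, beside 64 of all 11550 tested genes. On all genes above 0 it called 3 actin genes and 1 partner gene higher, beside 79 of 29700 genes.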

How the data were processed

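RNA of 12 libraries was sequenced. The authors deposited FPKM values per gene, 1 file for each library, and the paper's methods give no aligner or counting program for them. The submitters' processing notes name GRCm38. FPKM multiplied by gene length was a whole multiple of 1 step per library for at least 99.995% of genes above 0 (tolerance 0.1 read), which gave the recovered reads. Of the genes, 54409 are in GENCODE vM21, and 98.0% of these have the same exonic length there.

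The 11550 genes with a mean of at least 1 FPKM entered 1 linear model on log2(FPKM + 1), with a coefficient per group and moderated variances that follow a trend on the mean (limma 3.58.1 in R 4.3.3), with Benjamini-Hochberg adjustment over all tested genes and a threshold of 0.05. The fit was tested on simulated data. Single values outside the fit were compared by exact two-sided permutation tests (scipy 1.17.1), where 3 libraries against 3 cannot go below 0.1. Each result was recomputed with another pseudocount (0.1), without the filter, as TPM, with a replicate block, limma-voom on recovered reads, only the libraries compared, and leaving out each library. The members, gene lists and tests were chosen with earlier results of these data known. The text names the 8 members, other septins, Creb1, uncalled septin partners, and for 3 septins the 3 genes with the highest r. It also names examples from the called list genes with the smallest adjusted p (up to 4 a list and comparison). Cell type marker lists besides CD8, CD4 and platelet genes stayed at or below 9.10 summed FPKM (myeloid), 5.24 (NK), 2.74 (B cell) and 0.450 (erythroid). The septin partner called lower with knockdown without TVA is counted but otherwise not reported here.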

Additional observations from a re-analysis of the deposited data

Results flagged for a closer look

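The response to TVA differed between siNTC and siCreb1 cells, by limma's interaction term, for 1 septin. 11-Sep had an interaction of -0.26 on the log2 scale (limma adjusted p = 0.0441), with TVA differences of 0.33 in siNTC cells and 0.07 in siCreb1 cells.

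The same term was called for genes of the lists read beside the septins. Among cytokinesis genes it was -0.61 for Aurkb, -0.42 for Cdca8, -0.28 for Racgap1 and -0.34 for Incenp, and for the septin partner Anln it was -0.37, a call lost in 7 of the 12 fits without 1 library. Among tubulins it was -0.42 for Tubb5 and -0.48 for Tuba1b. The cortical actin gene Evl had 0.16, a positive value whose call was lost in 10 of the 12 fits without 1 library, under TPM (limma adjusted p = 0.111), with the replicate block (0.0730) and with all genes above 0 (0.0751). The call for 11-Sep was lost in 11 of those 12.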

How the results depend on the processing

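The log2 differences of 11-Sep and 8-Sep with TVA in siNTC cells and with knockdown without TVA kept their direction under all alternatives run. The number of septins called with TVA in siNTC cells went from 2 to 1 with only the libraries compared. It went to 3 by limma-voom on recovered reads, which added 7-Sep (adjusted p = 0.0273), and was 2 in every fit without 1 library. With knockdown without TVA it went from 2 to 1 with all genes above 0 (8-Sep adjusted p = 0.0544) and with only the libraries compared (0.0823), and was 1 to 2 without 1 library. With knockdown and TVA it went from 0 to 1 (2-Sep) by limma-voom on all genes above 0, an alternative added after seeing the data. For the interaction it went from 1 to 0 with all genes above 0 (11-Sep adjusted p = 0.0895), TPM and the replicate block, and was 0 to 1 without 1 library. The cause of these changes was not tested.

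For siCreb1 against siNTC with TVA, the sign turned from negative to positive under TPM (0.044 for 11-Sep, 0.039 for 7-Sep), limma-voom (0.012 and 0.0071) and limma-voom on all genes above 0 (0.012 and 0.0053), and in some fits without 1 library, where 11-Sep ranged from -0.036 to 0.021 and 7-Sep from -0.034 to 0.0046, with no adjusted p under 0.05. Over all genes, the alternatives that kept every library gave 368 to 1015 calls for TVA in siNTC cells (852 as reported), 34 to 178 for TVA in siCreb1 cells (62), 817 to 1974 and 683 to 1536 for knockdown without and with TVA (1586 and 1172), and 152 to 446 for the interaction (259). TPM moved the calls over all genes for knockdown without TVA from 753 higher and 833 lower to 908 and 297. The exact difference of 2-Sep stayed between 0.23 and 0.63, with p of 0.00216, or 0.00926 when labels were permuted within the replicate number.

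Same-numbered libraries showed no shared deviation: their deviations from the group means had correlations between -0.0593 and 0.0595 over 18 pairs. Whether they came from the same mice or cultures is not given in the labels. The replicate block left the septin counts at 2, 0, 2 and 0 in the 4 pairwise comparisons and 0 in the interaction. 10-Sep rested on 26 to 66 reads a library and 2-Sep on 46 to 147, which limits their precision.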
